A study of Arabidopsis thaliana with 12 samples.

Results

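The transcripts of dark-grown BES1-RNAi seedlings were compared with those of dark-grown wild type seedlings of Arabidopsis thaliana. The comparison used 6 RNA-seq libraries of the 12 in the series, 3 from BES1-RNAi and 3 from wild type, all from whole seedlings aged 3 days and kept in darkness. The other 6 libraries, 3 per genotype, came from seedlings of the same age given green light for 1 h (10 µmol m-2 s-1). They are used below for the same genotype difference under light and for its change from darkness. Their levels are also set beside the dark levels, and their spread enters the p-values of the dark comparison. The members are the 633 genes listed in the tables of both genotypes, of 1731 genes listed in either, and 615 of them are protein-coding. These tables hold a selection of genes, made by a filter that the available sources do not state. Means differed at least 2-fold between green light and darkness for 610 of the 633 genes in BES1-RNAi and 549 in wild type. The members are thus mostly light-responsive genes of these same libraries, and the results do not extend to other genes.

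BES1 is a transcription factor at the end of the brassinosteroid signalling chain, and RNAi lines express a transgene whose product triggers the degradation of the matching transcript. A seedling in darkness follows skotomorphogenesis, in which the hypocotyl elongates, the apical hook stays closed and the plastids remain etioplasts without chlorophyll. Brassinosteroids promote that programme, and mutants that lack them or cannot sense them open their cotyledons and express light-regulated genes in the dark. The comparison in darkness asks which of the listed transcripts already differed between the genotypes without green light. Neither the promoter of the RNAi transgene nor the number of independent lines is stated in the available sources. BES1 and its close relatives were not analysed here, so the silencing was not checked and the libraries are named by their labels.

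Of the 633 genes, 308 were higher in BES1-RNAi dark than in wild type dark seedlings (48.7%) and 100 were lower (15.8%), while 225 did not pass (limma on log2(FPKM + 1), Benjamini-Hochberg adjusted p under 0.05). FPKM counts fragments by kilobase of transcript, scaled to the fragments mapped in that library. The values of the 3 BES1-RNAi and 3 wild type libraries did not overlap for 437 genes (69.0%), with BES1-RNAi above for 329 (52.0%) and below for 108 (17.1%). Genes named for the largest differences were required not to overlap, so for them this is no separate support. The mean differed at least 2-fold upwards for 176 of the higher genes and at least 2-fold downwards for 34 of the lower genes. The median log2 difference was 0.92 among the higher genes, -0.65 among the lower genes and 0.34 over all 633.

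The listed genes as a whole therefore lay higher in BES1-RNAi. The median listed gene had 11.2 to 11.5 FPKM in the 3 BES1-RNAi dark libraries. It had 8.03 to 8.70 FPKM in the 3 wild type dark libraries. The sums over the 633 genes overlapped, with 22960 to 27283 FPKM in BES1-RNAi and 23834 to 32294 FPKM in wild type. These sums include 2 ribosomal RNA loci with identical values in every dark library, both lower in BES1-RNAi (log2 difference -1.52). The sums therefore hold more ribosomal RNA in wild type, and totals of the other listed genes alone were not computed. Setting all libraries to the same median moved every difference by -0.41 on the log2 scale. The shift also falls on genes near 0 FPKM, which can be called lower after scaling through it alone. Such genes are among the lower counts after scaling. After that scaling 199 genes were higher (31.4%) and 201 lower (31.8%): the 199 were all among the 308, and all 100 lower genes remained lower. Upper quartile scaling moved the differences by -0.49, with 180 genes higher (28.4%) and 233 lower (36.8%). With only selected genes in the tables, a general difference in level and a difference in these genes cannot be told apart. Counts after median scaling are therefore given beside the gene groups. The labels do not say whether the libraries came from separate cultures, so the p-values rest only on how far these libraries spread. In whole seedlings, fewer cells of a type and less RNA per cell cannot be told apart.

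**Figure D1:**
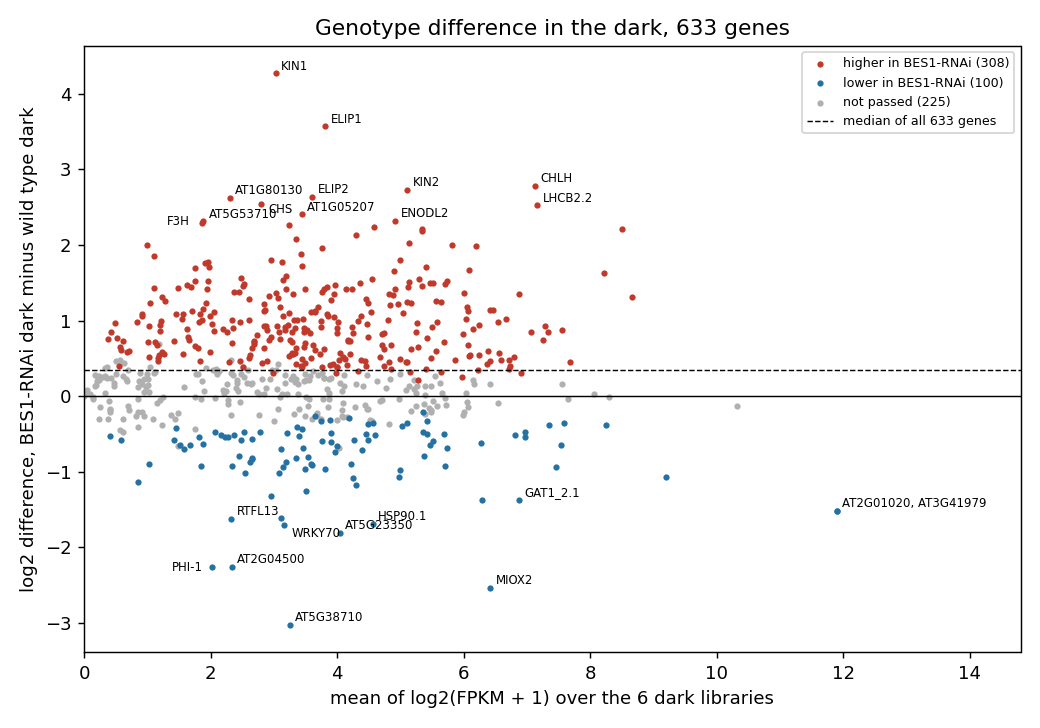
Each point is 1 of 633 genes, with its mean log2(FPKM + 1) over the 6 dark libraries on the horizontal axis and the log2 difference, BES1-RNAi dark minus wild type dark, on the vertical axis. Red points (308) were higher in BES1-RNAi, blue points (100) lower and grey points (225) did not pass; the dashed line at 0.34 is the median of all genes, and the genes with the largest differences in each direction are named, except 1 that is not reported here.

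Genes for greening were among the largest differences, although these seedlings were labelled as dark and had received no green light. CHLH (AT5G13630), the large subunit of the magnesium chelatase that commits protoporphyrin to chlorophyll, had 355, 340 and 395 FPKM in BES1-RNAi dark libraries, against 58.2, 51.8 and 46.8 FPKM in wild type dark libraries. The groups were far apart, and the ratio of the means was 6.95 (log2 difference 2.78 ± 0.10 SE, adjusted p = 6.0e-12). CAO, which converts chlorophyll a to chlorophyll b, averaged 112 ± 11.0 FPKM in BES1-RNAi and 27.2 ± 0.846 FPKM in wild type (SD, n = 3 each). GUN4, an activator of the magnesium chelatase, averaged 120 ± 3.07 FPKM in BES1-RNAi and 37.3 ± 1.69 FPKM in wild type. These were all 3 measured members of a list of 25 chlorophyll synthesis genes, and all 3 were higher, also after median scaling. Over all genes tested 48.7% were higher and 15.8% lower, and after median scaling 31.4% were higher and 31.8% lower, and the counts of every group here are to be read against these shares.

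The 2 measured nuclear photosynthesis genes, of 31 listed, were higher as well. LHCB2.2 (AT2G05070), a light-harvesting chlorophyll-binding protein of photosystem II, had 370, 249 and 431 FPKM in BES1-RNAi dark libraries, against 53.7, 57.0 and 65.8 FPKM in wild type dark libraries. RBCS1B (AT5G38430), a small subunit of Rubisco, had 752, 846 and 745 FPKM in BES1-RNAi, against 180, 173 and 153 FPKM in wild type. The ratios of the means were 5.95 and 4.63, and neither gene's groups overlapped. Both belong to families of near-identical copies, and how multiply matching reads were counted is not stated, so the share of each copy is uncertain.

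The 4 measured carotenoid genes, of 17 listed, were all higher with and without median scaling. PSY, the phytoene synthase that opens the carotenoid pathway, had 83.6, 84.7 and 89.6 FPKM in BES1-RNAi dark libraries, against 33.1, 29.6 and 27.9 FPKM in wild type dark libraries. The beta-carotene hydroxylase genes BCH2 and BCH1 had ratios of 3.40 and 1.90, and ABA1, the zeaxanthin epoxidase, had a ratio of 1.59. ABA1 thus showed the smallest difference of the group (log2 difference 0.65 ± 0.10 SE, adjusted p = 1.8e-05 by limma), and did not pass after upper quartile scaling (adjusted p = 0.13).

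Of 7 measured photoprotection genes of 17, 6 were higher and 1 did not pass; after median scaling 5 were higher, 1 was lower and 1 did not pass. ELIP1 (AT3G22840), an early light-induced thylakoid protein that binds pigment, had 57.8, 23.2 and 78.4 FPKM in BES1-RNAi dark libraries, against 2.57, 3.68 and 3.05 FPKM in wild type dark libraries. The BES1-RNAi libraries spread widely, replicate 2 being lowest, yet all lay above every wild type library (log2 difference 3.57 ± 0.29 SE, adjusted p = 2.3e-08 by limma). Its relative ELIP2 averaged 29.5 ± 4.81 FPKM in BES1-RNAi and 3.88 ± 0.491 FPKM in wild type. NPQ4, the PsbS protein needed to dissipate excess excitation as heat, averaged 638 ± 7.56 FPKM in BES1-RNAi and 258 ± 24.5 FPKM in wild type. OHP, a one-helix protein of the same superfamily, and VTC2, the enzyme that commits GDP-L-galactose to ascorbate, had ratios of 2.21 and 1.98. SEP2, a stress-enhanced protein, differed little, with 41.0 ± 0.899 FPKM in BES1-RNAi and 35.2 ± 1.35 FPKM in wild type, and its direction turned after median scaling. Its call (adjusted p = 0.023, limma) was lost without BES1-RNAi dark replicate 2 (adjusted p = 0.059) or wild type dark replicate 2 (adjusted p = 0.083). GPX7, a glutathione peroxidase-like gene, was near 0 in both genotypes, with 0.130 ± 0.0656 FPKM in BES1-RNAi and 0.250 ± 0.168 FPKM in wild type. It did not pass, with a log2 difference of -0.14. It was lower after median scaling, which moved every difference by -0.41, also near 0 FPKM.

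Among 4 measured genes for plastid gene expression and import, all were higher, and 2 were after median scaling. SIGE, a sigma factor that directs the plastid-encoded RNA polymerase, had 5.57, 3.71 and 6.21 FPKM in BES1-RNAi dark libraries, against 0.610, 1.01 and 1.02 FPKM in wild type dark libraries. FTSH8, a thylakoid protease subunit that takes part in photosystem II repair, averaged 48.8 ± 6.77 FPKM in BES1-RNAi and 17.5 ± 1.27 FPKM in wild type. The ABC protein genes ABCI21 and ABCI20 had ratios of 1.36 and 1.28, and ABCI20 turned direction after median scaling. ABCI20 also lost its call without BES1-RNAi dark replicate 2 (adjusted p = 0.070, limma). Other plastid genes were picked out after their values were seen and count as examples only. HCF107, needed for the psbH transcript, averaged 70.2 FPKM in BES1-RNAi and 16.4 FPKM in wild type. FD1, a ferredoxin, averaged 522 FPKM in BES1-RNAi and 168 FPKM in wild type, and the FtsH protease gene VAR1 averaged 186 FPKM in BES1-RNAi and 72.8 FPKM in wild type.

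The dark levels of BES1-RNAi seedlings can be set beside those of wild type seedlings after 1 h of green light, without a test. CHLH averaged 363 FPKM in BES1-RNAi dark libraries and 158 FPKM in wild type green light libraries. RBCS1B averaged 781 FPKM in BES1-RNAi dark and 377 FPKM in wild type green light, and LHCB2.2 averaged 350 FPKM in BES1-RNAi dark and 252 FPKM in wild type green light. For LHCB2.2, BES1-RNAi dark replicate 2 lay below that wild type mean. No scaling between libraries was applied to the means of this paragraph. ELIP1, a photoprotection gene, showed the other order, with 53.1 FPKM in BES1-RNAi dark and 337 FPKM in wild type green light, as did the flavonoid gene F3H, with 7.07 FPKM in BES1-RNAi dark and 74.7 FPKM in wild type green light. By list, the BES1-RNAi dark mean was above the wild type green light mean for 2 of 3 chlorophyll genes. The same held for 2 of 2 photosynthesis, 3 of 4 carotenoid, 2 of 7 photoprotection and 1 of 11 flavonoid genes. Among other lists it held for 3 of 5 auxin, 2 of 2 ethylene, 1 of 14 clock and 0 of 6 heat shock genes. No share over all genes tested is given for this comparison, so these counts do not set the greening lists apart.

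**Figure D2:**
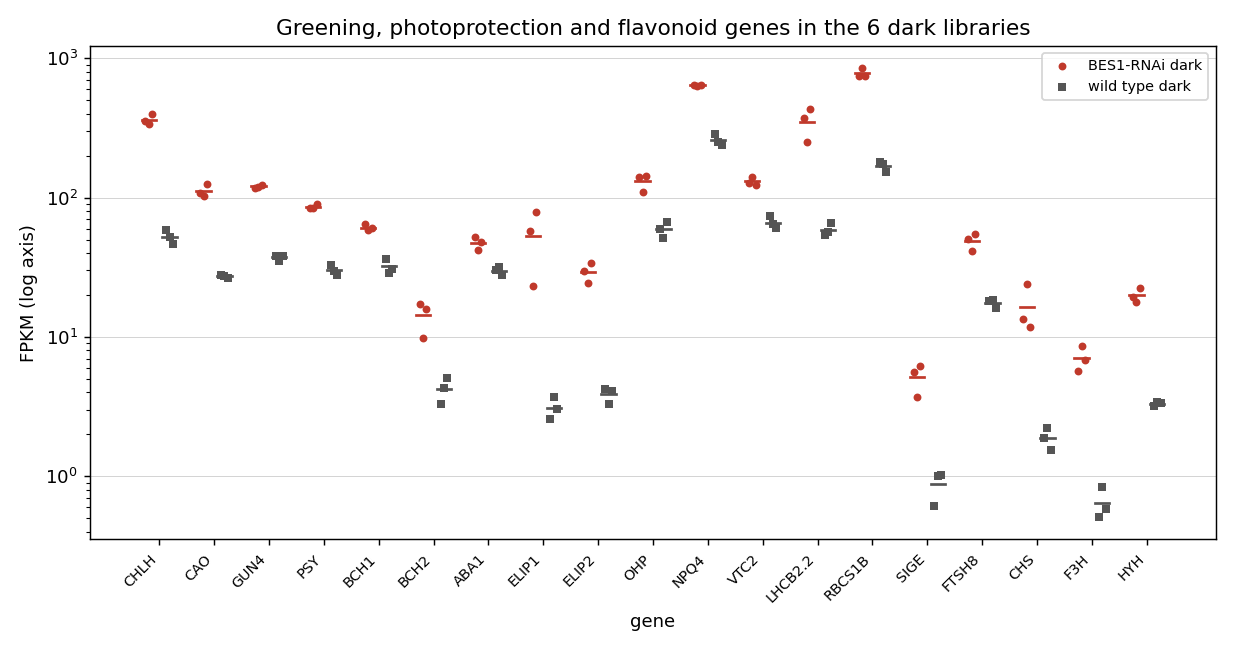
FPKM on a log axis for 19 named genes of greening, photoprotection, flavonoid synthesis and light signalling in the 6 dark libraries. Red circles are BES1-RNAi and grey squares wild type, 1 point per library, and the bars are means of 3. No BES1-RNAi value overlaps a wild type value of the same gene. The choice of the genes with the largest differences required this, and 52.0% of all 633 genes were higher without overlap.

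Flavonoid genes showed the same direction. Of 26 listed genes of flavonoid and phenylpropanoid synthesis, 11 were measured, of which 8 were higher and 3 did not pass; after median scaling 7 were higher and 4 did not pass. CHS (AT5G13930), the chalcone synthase at the start of the pathway, had 13.6, 23.9 and 11.7 FPKM in BES1-RNAi dark libraries, against 1.89, 2.21 and 1.55 FPKM in wild type dark libraries. F3H (AT3G51240), the flavanone 3-hydroxylase, had 5.73, 8.64 and 6.84 FPKM in BES1-RNAi, against 0.510, 0.840 and 0.580 FPKM in wild type. BES1-RNAi replicate 2 was the highest library for both genes, and for FLS1, the flavonol synthase, which averaged 4.59 ± 2.19 FPKM in BES1-RNAi and 0.957 ± 0.0252 FPKM in wild type. MYB111, a MYB factor that activates flavonol genes, had a ratio of 2.92, and the flavonol glycosyltransferase genes UGT78D1 and UGT78D2 had ratios of 2.23 and 1.93. The MYB factor genes MYB12 and PAP1 and the glycosyltransferase gene UGT84A1 were under 0.6 FPKM in all 6 libraries and did not pass. The median log2 difference of the list was 1.01, against 0.34 over all genes tested.

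Promoter sequences of 6 genes are shown because BES1 is known to bind E-box and CGTGTG-type elements, and the G-box CACGTG is a known element of light-regulated promoters. Each run holds the 250 bases before the annotated gene start in RefSeq TAIR10.1, 5′ to 3′ on the strand of the gene. Capitals mark a CACGTG and, on either strand, a CGTGTG or, where present, a CGTGCG. Other forms of the E-box (CANNTG) are not marked, and some stand in lower case, as in ELIP1, CHS, F3H and HYH. They were picked from 12 windows read, and include all that hold one of these motifs, ELIP1, CHS, F3H and HYH, and as examples without one CHLH and MIOX2. ELIP1 lies at chr3:8085670-8085919, minus strand, CHS at chr5:4488226-4488475, plus strand, F3H at chr3:19024942-19025191, plus strand, HYH at chr3:6023594-6023843, plus strand, CHLH at chr5:4392430-4392679, minus strand and MIOX2 at chr2:8533780-8534029, minus strand, each span being the printed one.
ELIP1: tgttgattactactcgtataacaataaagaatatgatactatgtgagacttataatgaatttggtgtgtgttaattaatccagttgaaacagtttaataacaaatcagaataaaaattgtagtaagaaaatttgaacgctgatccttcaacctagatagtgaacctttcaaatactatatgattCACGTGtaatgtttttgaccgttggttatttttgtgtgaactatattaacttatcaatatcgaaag
CHS: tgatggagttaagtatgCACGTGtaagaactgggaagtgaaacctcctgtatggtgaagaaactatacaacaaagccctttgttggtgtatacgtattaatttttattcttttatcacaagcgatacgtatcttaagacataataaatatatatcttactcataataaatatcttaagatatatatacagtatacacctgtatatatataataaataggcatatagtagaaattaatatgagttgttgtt
F3H: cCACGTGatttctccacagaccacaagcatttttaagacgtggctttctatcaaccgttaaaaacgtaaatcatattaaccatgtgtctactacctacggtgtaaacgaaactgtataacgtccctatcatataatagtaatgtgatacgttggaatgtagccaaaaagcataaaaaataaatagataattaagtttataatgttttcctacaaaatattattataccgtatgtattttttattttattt
HYH: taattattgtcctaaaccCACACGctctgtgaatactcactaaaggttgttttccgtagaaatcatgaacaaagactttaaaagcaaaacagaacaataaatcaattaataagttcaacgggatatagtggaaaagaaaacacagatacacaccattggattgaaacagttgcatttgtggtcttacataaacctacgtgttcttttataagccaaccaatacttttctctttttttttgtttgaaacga
CHLH: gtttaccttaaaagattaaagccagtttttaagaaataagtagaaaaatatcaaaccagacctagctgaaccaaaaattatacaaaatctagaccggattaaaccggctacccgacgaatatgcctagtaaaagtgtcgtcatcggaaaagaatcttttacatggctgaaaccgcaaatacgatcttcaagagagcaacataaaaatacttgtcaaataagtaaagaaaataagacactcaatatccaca
MIOX2: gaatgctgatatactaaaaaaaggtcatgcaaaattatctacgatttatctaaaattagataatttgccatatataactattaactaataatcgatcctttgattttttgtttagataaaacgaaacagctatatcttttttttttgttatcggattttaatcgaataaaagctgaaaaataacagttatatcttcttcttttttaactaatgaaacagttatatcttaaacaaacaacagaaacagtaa
CACGTG begins 66 bases before the annotated start in ELIP1, 233 in CHS and 249 in F3H, and CGTGTG lies on the other strand in HYH, printed as CACACG, 232 bases before the start. Of the 12 windows read, 3 thus held CACGTG and 1 held CGTGTG. The other 8, of CHLH, MIOX2, GUN4, ELIP2, KIN1, HSP90.1, AT5G38710 and WRKY70, held none of the 3 motifs.

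Over windows that run from 250 bases before to 50 after the start, searched on both strands, CACGTG was present in 59 of 300 promoters of the higher genes (19.7%), 15 of 97 of the lower genes (15.5%) and 26 of 218 of the genes that did not pass (11.9%). Among all 27443 protein-coding promoters the share was 7.68%. CGTGTG was present in 9.0% of the higher, 8.25% of the lower and 11.5% of the genes that did not pass, against 6.52% of all promoters. CGTGCG was present in 1 of the 300 higher and 1 of the 97 lower promoters, against 1.96% of all promoters. The E-box CANNTG, of which every CACGTG is also a match, was present in 73.0% of the higher, 62.9% of the lower and 62.4% of the genes that did not pass, against 61.7% of all promoters. AAATATCT, the evening element of clock-regulated promoters, was present in 9.67% of the higher, 6.19% of the lower and 6.88% of the genes that did not pass, against 5.65% of all promoters. After median scaling CACGTG was in 18.8% of the higher and 13.8% of the lower promoters. These shares describe letters in windows and were not tested.

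Among photoreceptor and light signalling genes, 15 of 35 were measured, of which 10 were higher, 2 lower and 3 did not pass; after median scaling these counts were 7, 5 and 3. HYH (AT3G17609), a bZIP factor close to HY5, had 19.3, 18.0 and 22.4 FPKM in BES1-RNAi dark libraries, against 3.22, 3.41 and 3.33 FPKM in wild type dark libraries. HY5 itself, the bZIP activator of photomorphogenesis, had 32.0, 29.7 and 40.6 FPKM in BES1-RNAi, against 18.0, 18.1 and 20.0 FPKM in wild type. Neither gene's groups overlapped, and the ratios of the means were 5.99 for HYH and 1.83 for HY5. RPT2, which acts with phototropins in phototropism, averaged 58.2 ± 2.84 FPKM in BES1-RNAi and 16.1 ± 1.84 FPKM in wild type. SPA3 and SPA1, partners of the COP1 ubiquitin ligase that degrades HY5 in the dark, had ratios of 2.32 and 1.99. The related UV-B signalling repressors differed in direction: RUP1 averaged 8.99 ± 0.728 FPKM in BES1-RNAi and 18.6 ± 2.71 FPKM in wild type, while RUP2 averaged 4.61 FPKM in BES1-RNAi and 2.08 FPKM in wild type. The other lower gene was ATHB-2, a homeobox gene of the shade response, with 61.6 FPKM in BES1-RNAi and 94.6 FPKM in wild type. PHOT1, PIL1 and PKS1 did not pass, with log2 differences of -0.01, -0.13 and -0.01.

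Of the BBX, GATA and GLK factors, transcription regulators of greening, 15 of 24 were measured, of which 9 were higher, BBX31 was lower and 5 did not pass. After median scaling 7 were higher, 4 lower and 4 did not pass. GLK2, an activator of chloroplast genes, had 72.3, 68.0 and 75.5 FPKM in BES1-RNAi dark libraries, against 28.7, 29.5 and 30.0 FPKM in wild type dark libraries. BBX23, a B-box factor that works with HY5, had 40.7, 38.0 and 42.1 FPKM in BES1-RNAi, against 12.2, 8.75 and 5.51 FPKM in wild type. BBX25, another B-box factor, averaged 6.22 ± 0.915 FPKM in BES1-RNAi and 1.11 ± 0.356 FPKM in wild type. None of these 3 genes overlapped between genotypes. The GATA factors GNC and CGA1, which promote chlorophyll synthesis, had ratios of 2.24 and 4.86, and COL1, a CONSTANS-like B-box gene, had a ratio of 2.46. CGA1 was low in both genotypes, with 2.76 ± 0.613 FPKM in BES1-RNAi and 0.567 ± 0.101 FPKM in wild type.

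Clock genes were measured for 14 of 27 members, of which 10 were higher, 2 lower and 2 did not pass; after median scaling 6 were higher, 4 lower and 4 did not pass. CCA1, a morning-phased MYB repressor, had 39.3, 42.9 and 44.0 FPKM in BES1-RNAi dark libraries, against 18.9, 16.0 and 18.6 FPKM in wild type dark libraries. Its partner LHY averaged 49.8 ± 2.40 FPKM in BES1-RNAi and 27.4 ± 1.44 FPKM in wild type. LNK1, a coactivator of the clock, had a ratio of 2.57, and PRR9, a pseudo-response regulator, had 2.41. CDF1, a DOF repressor of flowering, was low, with 2.16 ± 0.105 FPKM in BES1-RNAi and 0.347 ± 0.112 FPKM in wild type. The lower members were RVE8 and RVE1, MYB genes related to CCA1: RVE8 averaged 18.6 FPKM in BES1-RNAi and 24.3 FPKM in wild type, and RVE1 averaged 15.6 FPKM in BES1-RNAi and 19.2 FPKM in wild type. The values of RVE1 overlapped between the genotypes (adjusted p = 0.042, limma). The time of day of harvest is not stated in the available sources.

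**Figure D3:**
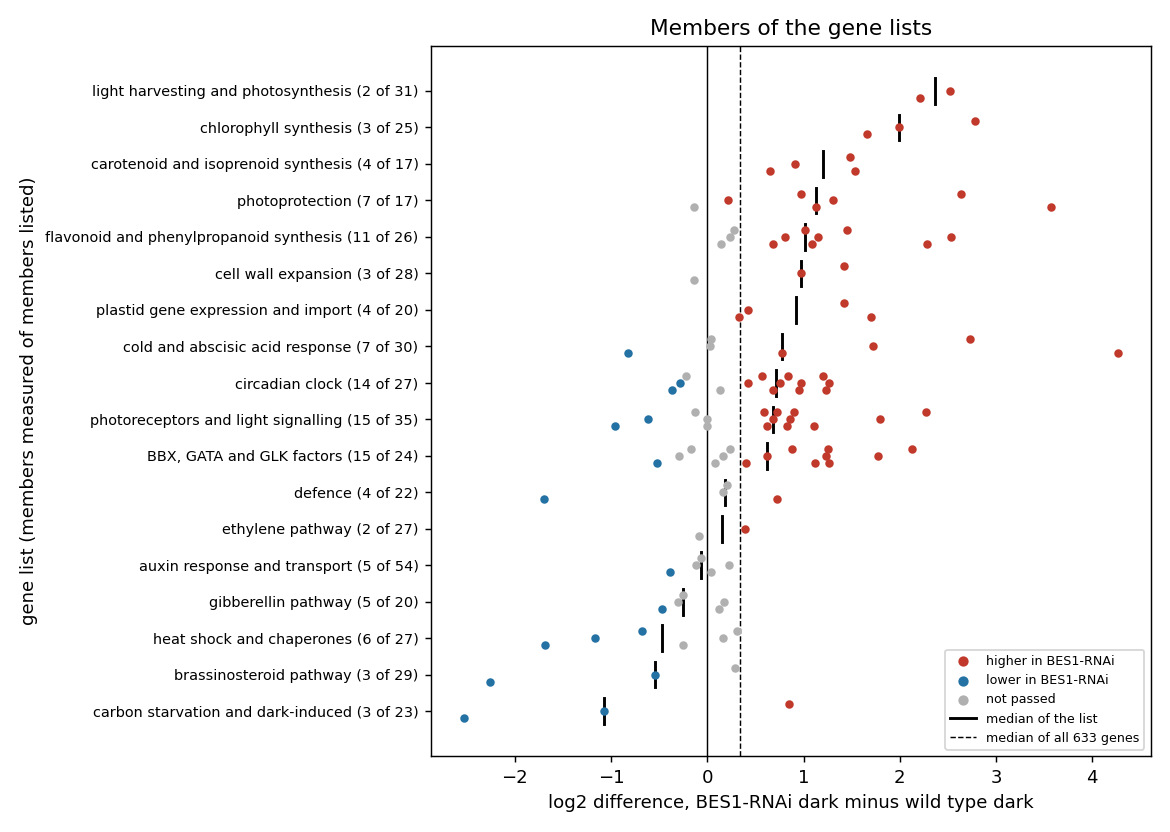
Log2 difference, BES1-RNAi dark minus wild type dark, of each measured member of the gene lists with at least 2 measured members. Red points were higher in BES1-RNAi, blue points lower and grey points did not pass; black ticks are list medians, the solid line is 0 and the dashed line the median of all 633 genes, and the lists run from carbon starvation at the bottom, with a median of -1.07, to photosynthesis at the top, with 2.36.

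The single largest increase was in a cold and abscisic acid response gene. KIN1 (AT5G15960), a small stress-induced protein, had 39.6, 35.8 and 29.5 FPKM in BES1-RNAi dark libraries, against 0.330, 0.560 and 2.08 FPKM in wild type dark libraries. The groups did not overlap, and the ratio of the means was 35.3, or 78.5 without wild type dark replicate 3 (log2 difference 4.27 ± 0.34 SE, adjusted p = 2.3e-08 by limma). KIN2 (AT5G15970), its near-identical neighbour, had 100.2, 97.8 and 68.9 FPKM in BES1-RNAi, against 17.3, 11.3 and 9.70 FPKM in wild type, and reads may be shared between the pair. ATHB-7 and ATHB-12, homeobox genes induced by abscisic acid, had ratios of 3.72 and 1.76, and ATHB-12 did not pass after upper quartile scaling (adjusted p = 0.081, limma). Of the 7 measured members of this list of 30, 4 were higher, 1 was lower and 2 did not pass; after median scaling these counts were 4, 2 and 1. The lower member was GOLS3, a cold-induced galactinol synthase, with 3.72 ± 0.268 FPKM in BES1-RNAi and 7.35 ± 0.211 FPKM in wild type. CBF3, the cold-induced regulator, did not pass, with 0.560, 0.180 and 0.110 FPKM in BES1-RNAi, against 0.550, 0.150 and 0.05 FPKM in wild type.

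The other genes among the 12 largest increases belong to no list used here. AT1G80130, a tetratricopeptide repeat protein, averaged 11.3 ± 1.51 FPKM in BES1-RNAi dark and 0.993 ± 0.196 FPKM in wild type dark libraries. ENODL2, an early nodulin-like protein, averaged 67.0 ± 9.54 FPKM in BES1-RNAi and 12.5 ± 1.1 FPKM in wild type. AT5G53710, an uncharacterized protein, averaged 7.67 ± 3.13 FPKM in BES1-RNAi and 0.657 ± 0.0862 FPKM in wild type. The non-coding RNA AT1G05207 had 22.2, 26.6 and 23.1 FPKM in BES1-RNAi, against 8.40, 1.17 and 4.11 FPKM in wild type, so its spread lay in wild type: the ratio of the means was 5.25, or 9.07 without wild type dark replicate 1. Of 14 long non-coding RNAs among the 633 genes, 7 were higher and 1 was lower, and after median scaling 6 were higher and 2 lower. AT2G17972, a protein-coding gene, had 3.19, 3.07 and 2.69 FPKM in BES1-RNAi and was listed at 0 in all 3 wild type dark libraries, so no fold is given.

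Among the lower genes, AT5G38710 showed the largest difference. This gene, annotated in RefSeq as a methylenetetrahydrofolate reductase family protein, had 2.33, 2.15 and 2.55 FPKM in BES1-RNAi dark libraries, against 22.3, 29.2 and 27.3 FPKM in wild type dark libraries. The mean was 11.2-fold higher in wild type (log2 difference -3.02 ± 0.18 SE, adjusted p = 1.3e-09 by limma). MIOX2 (AT2G19800), a myo-inositol oxygenase induced by low carbon supply, had 36.4, 33.9 and 33.4 FPKM in BES1-RNAi, against 197, 203 and 214 FPKM in wild type. Replicates of both genes were tight and far apart between genotypes. DIN10, a dark-induced raffinose synthase family gene, averaged 403 ± 40.9 FPKM in BES1-RNAi and 847 ± 57.8 FPKM in wild type. BT2, a BTB and TAZ domain protein repressed by sugar, had the opposite sign, with 218 ± 42.6 FPKM in BES1-RNAi and 120 ± 17.3 FPKM in wild type. Those were the 3 measured members of 23 carbon starvation genes, 1 higher and 2 lower; after median scaling BT2 did not pass.

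Heat shock genes were lower or did not pass. Of 6 measured members of 27, none was higher, 3 were lower and 3 did not pass, against 15.8% lower over all genes tested. After median scaling 4 were lower and 2 did not pass, against 31.8% lower over all genes tested. HSP90.1, a heat-inducible chaperone, had 15.0, 10.7 and 11.2 FPKM in BES1-RNAi dark libraries, against 43.0, 42.7 and 38.8 FPKM in wild type dark libraries. HSP101, a chaperone that dissolves aggregates, averaged 12.1 ± 1.24 FPKM in BES1-RNAi and 28.4 ± 3.17 FPKM in wild type, and the HSP70 gene AT3G12580 averaged 41.6 ± 8.23 FPKM in BES1-RNAi and 66.8 ± 8.27 FPKM in wild type. Their groups did not overlap. The heat stress factor HSFA2 did not pass, with 4.87, 2.14 and 6.08 FPKM in BES1-RNAi, against 2.82, 3.83 and 4.02 FPKM in wild type. Its call depended on 1 library: without BES1-RNAi dark replicate 2 its log2 difference was 0.51 (adjusted p = 0.029, limma), against 0.16 with all libraries. MBF1C, a coactivator of heat tolerance, did not pass with a log2 difference of 0.30, and had 0.45 without wild type dark replicate 3 (adjusted p = 0.018, limma).

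WRKY70, a WRKY factor of salicylic acid signalling, had 3.77, 3.25 and 5.08 FPKM in BES1-RNAi dark libraries, against 17.0, 11.2 and 18.4 FPKM in wild type dark libraries. Of 4 measured defence genes it alone was lower, RPP4, a disease resistance gene, was higher with 0.973 ± 0.0850 FPKM in BES1-RNAi and 0.200 ± 0.145 FPKM in wild type, and 2 did not pass. After median scaling WRKY70 remained lower and RPP4 did not pass. The ratio of RPP4 was 4.87, or 7.49 without wild type dark replicate 2. Of the remaining large decreases, AT2G04500, a cysteine- and histidine-rich C1 domain protein, averaged 1.33 ± 0.367 FPKM in BES1-RNAi and 10.0 ± 0.437 FPKM in wild type. AT5G23350, a GRAM domain protein, averaged 7.85 ± 0.888 FPKM in BES1-RNAi and 30.0 ± 4.07 FPKM in wild type. GAT1_2.1, a class I glutamine amidotransferase-like protein, averaged 73.2 ± 14.1 FPKM in BES1-RNAi and 189 ± 10.7 FPKM in wild type. The mean of the peptide gene RTFL13 was 4.18-fold higher in wild type.

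The most abundant RNA of the tables was also lower. The ribosomal RNA loci AT2G01020 and AT3G41979, which had identical values in every dark library, had 2714, 1324 and 3151 FPKM in BES1-RNAi dark libraries, against 8038, 4138 and 8010 FPKM in wild type dark libraries. Replicate 2 was the lowest library of both genotypes, and the highest BES1-RNAi library lay below the lowest wild type library (log2 difference -1.52 ± 0.42 SE, adjusted p = 0.0047 by limma). FPKM values are relative to the whole library, so a change in an abundant RNA moves the others. The part of ribosomal RNA in the other results was not tested.

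**Figure D4:**
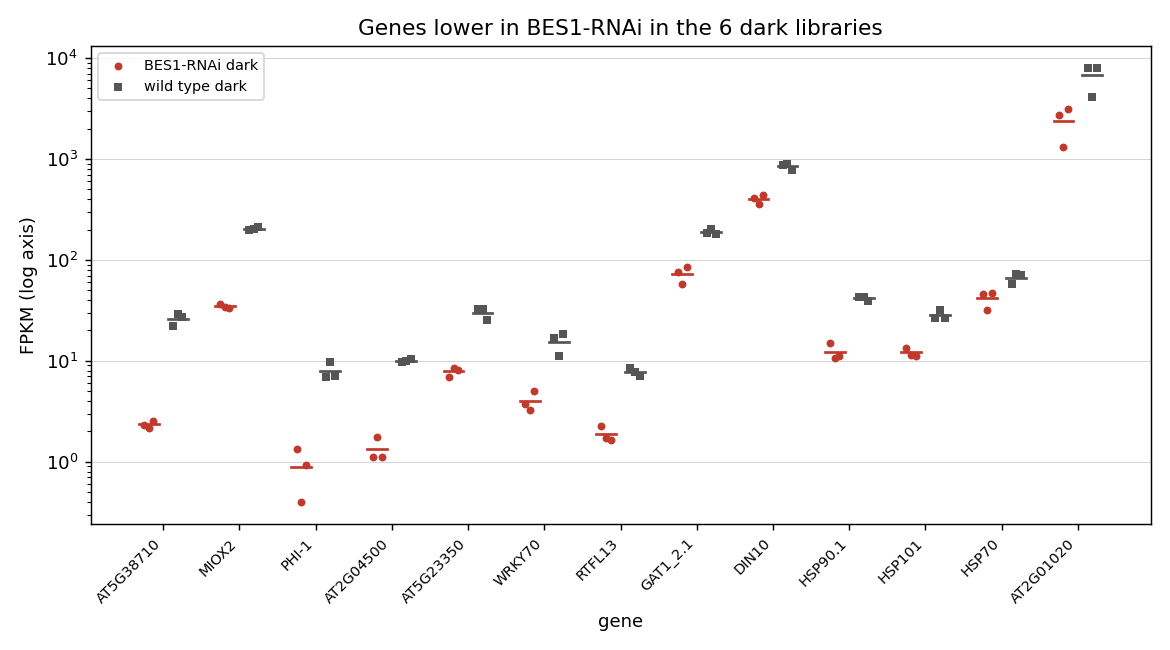
FPKM on a log axis for 13 named genes lower in BES1-RNAi, in the 6 dark libraries. Red circles are BES1-RNAi and grey squares wild type, 1 point per library, with bars at the means of 3. The groups do not overlap for any of the 13, which the choice required of those named for the largest differences. Of all 633 genes 17.1% were lower without overlap. The ribosomal RNA locus AT2G01020 is the most abundant.

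Few genes of the hormone pathways were in both tables. Of 29 brassinosteroid pathway genes 3 were measured, of which 2 were lower and 1 did not pass, with and without median scaling. PHI-1 (AT1G35140), a phosphate-induced protein of the EXORDIUM family, had 1.34, 0.400 and 0.920 FPKM in BES1-RNAi dark libraries, against 6.94, 9.82 and 7.07 FPKM in wild type dark libraries. PRE6 (AT1G26945), an atypical bHLH protein that promotes elongation, had 99.1, 105 and 103 FPKM in BES1-RNAi, against 138, 166 and 146 FPKM in wild type. Both genes were lower in every BES1-RNAi library than in any wild type library. BEE3, a bHLH gene induced by brassinosteroid, did not pass, with a log2 difference of 0.28 ± 0.27 SE.

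Of 54 auxin genes 5 were measured, of which IAA19 was lower and 4 did not pass. IAA19, an auxin-induced repressor of the auxin response, had 240, 253 and 303 FPKM in BES1-RNAi dark libraries, against 333, 359 and 342 FPKM in wild type dark libraries. SAUR6 and SAUR14, small auxin-up RNA genes, did not pass, with log2 differences of -0.06 and -0.12, and after median scaling 4 of the 5 were lower, against 31.8% over all genes tested. Of 20 gibberellin genes 5 were measured, of which GA2OX2, an enzyme that inactivates gibberellin, was lower with a ratio of 0.679, and 4 did not pass; after median scaling 3 were lower. HLS1, an acetyltransferase-like protein needed for the apical hook, was 1 of 2 measured ethylene genes, and had 24.2 ± 1.23 FPKM in BES1-RNAi and 18.1 ± 0.928 FPKM in wild type, with a direction that turned after median scaling. The other, the homeobox gene HB52, did not pass, and was lower after median scaling (log2 difference -0.49, adjusted p = 0.039 by limma), when neither ethylene gene was higher.

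Of 28 cell wall expansion genes 3 were measured, of which 2 were higher and 1 did not pass. The expansin EXPA1, which loosens the wall, had 73.4, 64.5 and 61.1 FPKM in BES1-RNAi dark libraries, against 32.8, 31.9 and 34.5 FPKM in wild type dark libraries. EXPA10, another expansin, averaged 28.7 ± 8.46 FPKM in BES1-RNAi and 9.89 ± 2.11 FPKM in wild type. XTH15, a xyloglucan endotransglucosylase, did not pass, with 1263, 1042 and 1370 FPKM in BES1-RNAi, against 1482, 1199 and 1341 FPKM in wild type, and was lower after median scaling. The 2 expansin genes remained higher after it.

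The tables hold little to judge tissue makeup. None of the listed markers of seed storage (14 genes), root and root hair (13) or stomatal lineage (9) was among the 633 genes, nor was any member of the cytokinin or iron lists. Of the epidermal markers GL3 was measured, with 0.813 ± 0.379 FPKM in BES1-RNAi and 0.837 ± 0.119 FPKM in wild type. It did not pass, with a log2 difference of -0.04. It was lower after median scaling, which moved every difference by -0.41. Of the meristem and leaf primordium markers GRF7, a growth-regulating factor, was measured, and averaged 104 ± 9.09 FPKM in BES1-RNAi and 53.4 ± 5.88 FPKM in wild type (adjusted p = 8.3e-05, limma), and was also higher after median scaling. The part of tissue makeup in the other results was not tested. JAZ9, the measured jasmonate gene, did not pass, and was lower after median scaling.

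The same genotype difference was then read in the 6 green light libraries. Its group means share no library with those of the dark comparison. The calls of both rest on the same fit and its shared estimate of the spread, and the listed genes are mostly light-responsive in these libraries. The overlap of calls is therefore not an independent check. After 1 h of green light 346 genes were higher in BES1-RNAi (54.7%) and 101 were lower (16.0%), with a median log2 difference of 0.46. Of the 308 genes higher in the dark, 262 were also higher in green light, which is 85.1% of the dark set and 75.7% of the green light set, while 7 were lower and 39 did not pass. Of the 100 genes lower in the dark, 61 were also lower in green light, which is 61% of the dark set and 60.4% of the green light set, while 5 were higher and 34 did not pass. Across the 633 genes, which are not independent, the differences in darkness and in green light were correlated with r = 0.79 (Pearson) and rho = 0.79 (Spearman).

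The difference between the 2 conditions was itself tested. The signed log2 difference was more positive in green light than in darkness for 112 genes (17.7%) and more negative for 67 (10.6%) (limma interaction, Benjamini-Hochberg adjusted p under 0.05). Of the dark calls, 217 of the 308 higher and 67 of the 100 lower genes did not pass it. Neither did 170 of the 225 genes not called in the dark, so this is not particular to the dark calls. Among greening genes, CHLH kept its direction with a smaller difference, at 704 FPKM in BES1-RNAi green light and 158 FPKM in wild type green light, a change of -0.63 on the log2 scale from the dark. HY5 differed in the dark and did not pass in green light, with 254 FPKM in BES1-RNAi and 235 FPKM in wild type, and the interaction was -0.72. Without scaling between libraries IAA19 turned direction, with 119 FPKM in BES1-RNAi green light and 91.6 FPKM in wild type green light, and the interaction was 0.76. In all, 12 genes were called in opposite directions in darkness and green light. All 12 passed the interaction test, which 2 opposite calls in the same fit nearly fix in advance. They were ASG4, ECT8, IAA19, AT4G25260 and AT5G64850, lower in the dark and higher in green light, and RVE7, AT3G02910, AT4G12410, FLP1, CIB1, AT5G44260 and AT5G57760, higher in the dark and lower in green light. Those calls were made without scaling between libraries and were not counted again after it. In green light ECT8 (0.30), IAA19 (0.38) and AT4G25260 (0.26) lay under the median of 0.46 over all genes. ASG4 (1.07) and AT5G64850 (1.42) lay above it. In the dark CIB1 (0.48) and AT5G44260 (0.46) were little larger than the shift by median scaling (-0.41), and the others were 0.63 or more.

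**Figure D5:**
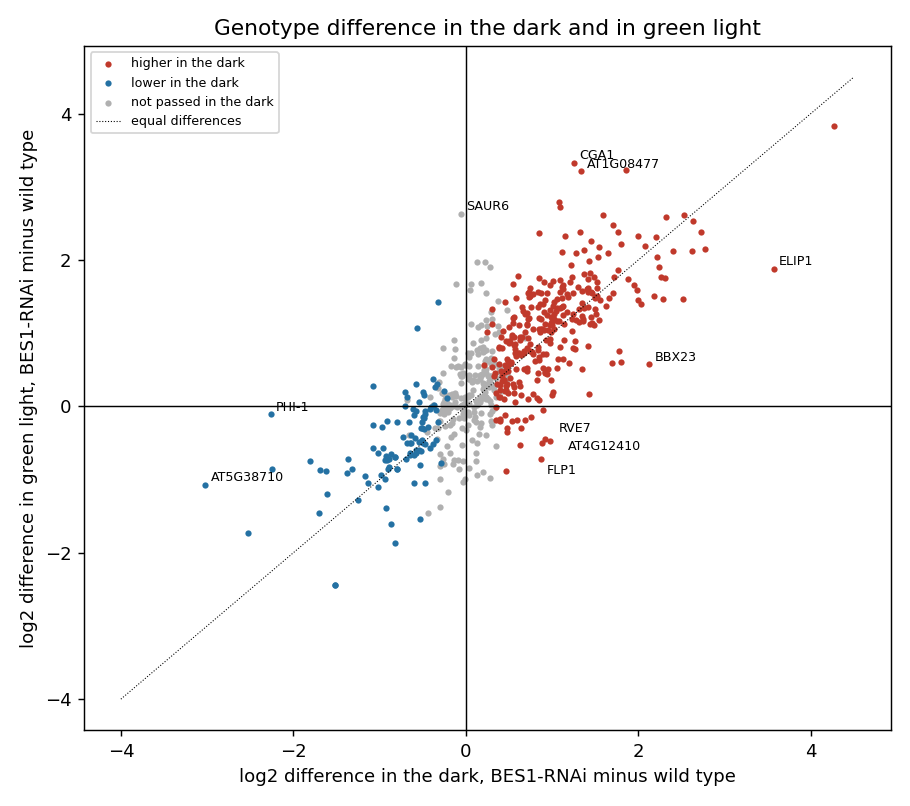
Each point is 1 of 633 genes, with the log2 difference BES1-RNAi minus wild type in the dark on the horizontal axis and in green light on the vertical axis. Colours give the call in the dark (red higher, blue lower, grey not passed), the dotted line marks equal differences, and the 5 genes farthest from it among those past the interaction test in each direction are named.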

How the data were processed

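RNA-seq was analysed from 12 libraries in 4 groups of 3. Per the labels' protocols, RNAiso Plus was used for total RNA and a TruSeq kit for the libraries. The authors deposited FPKM values per gene and library, each table already limited to a selection of genes. Per the submitters' processing notes, the build was TAIR10 and the tools were DESeq 1.18.0, Bowtie2, TopHat, Cufflinks, HISAT2 2.2.1.0 and Trimmomatic 0.36, with no role or order stated. Neither strand nor the counting of multiply matching reads is stated there, so antisense, overlapping and near-identical genes are uncertain.

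From the deposited FPKM, log2(FPKM + 1) was fitted by limma 3.58.1 (R 4.3.3), using an intensity trend but no scaling between libraries, over 633 genes and all 12 libraries, which share 1 estimate of the spread. The pseudocount of 1 shrinks the differences of genes at low FPKM. P-values were two-sided, adjusted by Benjamini-Hochberg across all 633 genes, with a threshold of 0.05. No count test was used. Depth is unknown: low values were searched for whole-read steps, but 16 to 100 of 100 shuffles of gene lengths came as close as the real lengths in each library, so no counting intervals are given. The script was tested on simulated data. At most 1.58% of the values of any 2 libraries of a group were equal, their Spearman correlations were at least 0.98, and all were counted as separate.

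The named genes are, per direction, the 12 with the largest log2 difference among those past the threshold without overlap and averaging 1 FPKM or more in the group that is higher, then from each list with 2 or more measured members up to 6 with the lowest adjusted p, and 5 per direction for the interaction. One gene that the rule names is not reported here. Other genes named were chosen after their values were seen. Of 601 list entries 599 were matched to a gene, and 116 list genes were measured. The members and lists were chosen with earlier results of these data known. Promoters were read from the RefSeq TAIR10.1 genome and annotation, since no ready table of them was used, and annotated starts may lie downstream of other starts. Alternatives were a pseudocount of 0.1, a minimum mean of 1 FPKM, median and upper quartile scaling, the 6 dark libraries alone, no intensity trend, no ribosomal RNA genes, a replicate block and leaving out each dark library. Figures were drawn with matplotlib 3.10.9 in Python 3.11.15.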

Additional observations from a re-analysis of the deposited data

Results flagged for a closer look

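The signed genotype difference was more positive in green light than in darkness for 112 genes and more negative for 67, by the limma interaction test with Benjamini-Hochberg adjustment. The values below are the log2 difference in green light minus that in darkness, each difference being BES1-RNAi minus wild type.

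The largest positive value was that of SAUR6, a small auxin-up RNA gene, at 2.69. It had 43.8 FPKM in BES1-RNAi dark and 45.8 FPKM in wild type dark libraries, but 109 FPKM in BES1-RNAi green light and 17.0 FPKM in wild type green light libraries. PHI-1 followed at 2.15: it was lower in BES1-RNAi in the dark and did not pass in green light, with 2.88 FPKM in BES1-RNAi and 3.24 FPKM in wild type. CGA1, a GATA factor of greening, had 2.08, with 94.9 FPKM in BES1-RNAi green light and 8.59 FPKM in wild type green light. AT5G38710 had 1.95, with 1.07 FPKM in BES1-RNAi green light and 3.39 FPKM in wild type green light, and the non-coding RNA AT1G08477 had 1.88, with 282 FPKM in BES1-RNAi green light and 29.8 FPKM in wild type green light.

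In the other direction ELIP1 had -1.69, with 1236 FPKM in BES1-RNAi green light and 337 FPKM in wild type green light, where it was still higher in BES1-RNAi. FLP1, a gene of the flowering-promoting factor family, had -1.60, with 257 FPKM in BES1-RNAi dark and 138 FPKM in wild type dark, and 28.3 FPKM in BES1-RNAi green light and 46.2 FPKM in wild type green light. BBX23 had -1.56, with 1.25 FPKM in BES1-RNAi green light and 0.51 FPKM in wild type green light, levels at which the pseudocount shrinks the difference. RVE7, a MYB gene related to CCA1, had -1.44, with 118 FPKM in BES1-RNAi green light and 164 FPKM in wild type green light. The SAUR-like gene AT4G12410 had -1.38, with 6.39 FPKM in BES1-RNAi green light and 9.62 FPKM in wild type green light.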

How the results depend on the processing

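Scaling between libraries was the only choice that moved the main counts by over 1.5 times. Median scaling gave 199 genes higher and 201 lower in the dark, and 219 and 240 in green light; upper quartile scaling gave 180 and 233 in the dark, and 213 and 251 in green light. Under median scaling the log2 difference of 13 of 92 named genes turned sign, and under upper quartile scaling that of 14. With median and then upper quartile scaling, the values were -0.19 and -0.28 for SEP2, -0.0745 and -0.156 for ABCI20, -0.19 and -0.27 for DFL2, -0.37 and -0.45 for IAA29, -0.12 and -0.21 for BEE3, -0.0135 and -0.0951 for HLS1, -0.23 and -0.31 for GAI, -0.29 and -0.37 for GA2OX1, -0.10 and -0.19 for MBF1C, -0.24 and -0.32 for HSFA2, -0.38 and -0.46 for COR413-PM1, -0.20 and -0.29 for CYP71B11 and -0.24 and -0.32 for THI2.2, and -0.0717 for ABCI21 with upper quartile scaling. ABA1 and ATHB-12 lost their call under upper quartile scaling, and BT2, RPP4, ABCI20, ABCI21 and HLS1 under both. SEP2 lost its call under median scaling and was lower under upper quartile scaling. SAUR14, SAUR6, HB52, GA3OX2, GA2OX8, XTH15, ROF2, IAA29 and COR413-PM1 became lower under both, and GAI under upper quartile scaling. The cause was not tested.

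Leaving out each dark library in turn gave 290 to 306 genes higher and 93 to 104 lower, and 73 of 75 called named genes kept their call, SEP2 and ABCI20 being the exceptions. The named genes were chosen for large differences or low adjusted p, so their share does not extend to the other called genes. The log2 dark difference of some genes that did not pass turned sign when a library was left out, ranging from -0.00352 to 0.115 for IAA29, -0.151 to 0.00841 for HB52, -0.0425 to 0.286 for GA2OX1, -0.0757 to 0.511 for HSFA2, -0.0323 to 0.0699 for COR413-PM1, -0.296 to 0.456 for CYP71B11 and -0.153 to 0.349 for THI2.2. With a pseudocount of 0.1 the interaction called 143 genes in place of 179, and GA3OX2 passed in the dark (adjusted p = 0.031, limma).

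Replicate numbers are shared by the groups, and the deviations of same-numbered dark libraries from their group means correlated across genes at -0.043, -0.026 and 0.011, so the numbers were not taken to pair the libraries; green light libraries were not checked. With the replicate block 307 genes were higher and 101 lower in the dark, and the interaction called 174; SEP2 lost its call under the block (adjusted p = 0.067, limma) and without the intensity trend (adjusted p = 0.052). For the ribosomal RNA locus AT2G01020, whose replicate 2 was lowest in both genotypes, the block gave an adjusted p of 2.9e-05, and the other alternatives 0.000695 to 0.0298. Depth is unknown, so low genes carry an unknown counting error.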

Other observations

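Some genes outside the lists also differed in the dark, and were picked out after their values were seen. RD20, a calcium-binding caleosin induced by drought and abscisic acid, had 105, 94.0 and 64.6 FPKM in BES1-RNAi dark libraries, against 22.6, 13.8 and 17.9 FPKM in wild type dark libraries. GBSS1, the granule-bound starch synthase, averaged 15.3 FPKM in BES1-RNAi and 3.75 FPKM in wild type, and CP12-2, a regulator of Calvin cycle enzymes, averaged 52.5 FPKM in BES1-RNAi and 15.8 FPKM in wild type. The locus of the microRNA precursor MIR824 had 4.04, 4.15 and 3.65 FPKM in BES1-RNAi, against 1.39, 1.72 and 1.4 FPKM in wild type. For each of these 4 genes the groups did not overlap, and each was also higher after median scaling.

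Besides AT2G17972, the genes UGT73C1, scpl10 and AT5G04380 were listed at 0 in all 3 wild type dark libraries and were called higher in BES1-RNAi. Their highest BES1-RNAi dark value was 1.14 FPKM, in scpl10.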
